A study of Mus musculus with 6 samples.

Results

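Matricellular proteins are secreted into the extracellular matrix but, unlike collagens, bear little load there. They bind receptors, growth factors and structural fibres and so set how cells attach, spread and signal. The group described here holds 10 genes, chosen by name as the thrombospondins Thbs1, Thbs2, Thbs3 and Thbs4, the fasciclin-domain proteins Postn and Tgfbi, the SPARC pair Sparc and Sparcl1, tenascin C (Tnc) and osteopontin (Spp1). All 10 were among the 24197 genes of the count table, and 9 passed the filter on low counts that left 13805 genes for testing. Thbs4 did not pass it. The RNA was polyadenylated RNA of stromal-vascular cells, the non-adipocyte cells released when fat is digested, from the inguinal depot of C57BL/6 mice. One group of 3 libraries, puro, carried a control (puro) retrovirus, and the other group of 3, Prdm16, a retrovirus that delivers the transcriptional regulator Prdm16. Both groups were grown in standard medium, with no other treatment in the labels, and the promoter that drives the delivered gene and the age and sex of the mice are not stated in the labels. Nor do they say whether replicates came from separate animals or cultures, and a p-value therefore covers only how much these libraries vary, and that variation may be technical.

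Thrombospondins 1 and 2 bind CD36, CD47 and integrins, and thrombospondin 1 can also release active TGF-beta from its latent complex, whereas thrombospondins 3 and 4 lack the repeats that carry those CD36 and TGF-beta activities. Periostin and Tgfbi, both secreted on TGF-beta signalling in many mesenchymal cells, are built from fasciclin domains and join collagen, fibronectin and integrins. SPARC and its relative Sparcl1 bind collagen and loosen cell adhesion, tenascin C is laid down in growing and wounded tissue, and osteopontin is a phosphoprotein ligand of integrins and CD44. In fat, stromal fibroblasts and progenitors are known sources of several of these proteins.

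The start regions of the genes with the largest falls and of the genes that rose are shown, since these members moved in opposite directions. RefSeq start regions, 250 bases before to 50 after the start site on GRCm38.p6, were found for 8 of the 10 genes, and for a gene with more than 1 listed start the one with most GENCODE starts nearby was taken. Thbs2 (chr17:14694213-14694512, minus strand), Postn (chr3:54360857-54361156, plus strand) and Tgfbi (chr13:56609336-56609635, plus strand) had the largest falls. Thbs3 (chr3:89214930-89215229, plus strand) and Spp1 (chr5:104434861-104435160, plus strand) rose. Capitals mark matches, on either strand, to the TATA box (TATAAA), the CCAAT box (CCAAT), the GC box (GGGCGG) and the SMAD box (CAGACA).
Thbs2: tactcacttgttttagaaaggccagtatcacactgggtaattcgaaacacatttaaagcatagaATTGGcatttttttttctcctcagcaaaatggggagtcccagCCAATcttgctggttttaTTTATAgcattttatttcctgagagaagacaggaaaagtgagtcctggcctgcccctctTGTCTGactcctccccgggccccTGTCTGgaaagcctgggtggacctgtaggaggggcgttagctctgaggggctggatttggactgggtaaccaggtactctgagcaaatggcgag
Postn: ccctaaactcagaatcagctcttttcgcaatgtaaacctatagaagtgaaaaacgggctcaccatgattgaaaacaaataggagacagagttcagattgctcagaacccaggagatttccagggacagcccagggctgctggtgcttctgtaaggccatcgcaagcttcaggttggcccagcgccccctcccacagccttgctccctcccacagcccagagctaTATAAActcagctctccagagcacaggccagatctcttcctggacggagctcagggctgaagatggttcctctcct
Tgfbi: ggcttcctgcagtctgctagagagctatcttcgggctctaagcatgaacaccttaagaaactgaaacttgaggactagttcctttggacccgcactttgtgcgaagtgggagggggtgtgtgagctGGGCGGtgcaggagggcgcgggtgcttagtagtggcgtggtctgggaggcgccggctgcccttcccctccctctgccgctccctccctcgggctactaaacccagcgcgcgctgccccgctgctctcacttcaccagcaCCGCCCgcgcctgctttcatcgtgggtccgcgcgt
Thbs3: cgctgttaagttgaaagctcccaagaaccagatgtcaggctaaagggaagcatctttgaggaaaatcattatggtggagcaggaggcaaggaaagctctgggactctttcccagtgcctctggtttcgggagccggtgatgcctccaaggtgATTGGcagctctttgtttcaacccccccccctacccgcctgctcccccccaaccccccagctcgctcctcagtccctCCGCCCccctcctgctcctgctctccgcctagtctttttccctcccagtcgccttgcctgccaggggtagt
Spp1: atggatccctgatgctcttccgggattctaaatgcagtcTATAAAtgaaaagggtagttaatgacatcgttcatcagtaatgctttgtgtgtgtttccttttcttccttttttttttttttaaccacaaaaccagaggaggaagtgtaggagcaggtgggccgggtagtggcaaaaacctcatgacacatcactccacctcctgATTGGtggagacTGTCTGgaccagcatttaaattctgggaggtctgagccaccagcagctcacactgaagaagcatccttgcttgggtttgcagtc
No motif was matched in all 3 genes with the largest falls. Postn had a TATA box beginning 26 bases before its start and no other match, Tgfbi had only GC boxes, and Thbs2 held a TATA box 126 bases before the start, 2 CCAAT boxes and 2 SMAD boxes. Spp1, which rose, also had a TATA box, 211 bases before its start, with a CCAAT and a SMAD box nearer to it, while Thbs3 had a CCAAT and a GC box. Of the 8 regions, 4 held a TATA box, against 13.6% of all 32851 start regions, 3 a CCAAT box (37.4% of all), 4 a GC box (35.7%) and 5 a SMAD box (21.0%). The AP-1 site (TGANTCA) and the CArG box of serum response factor were searched too and had no match in the 8 regions, against 7.8% and 1.6% of all, and the TEAD site (GGAATG) matched in 1, against 14.7%. In the regions shown no match overlapped one of another motif, and a match describes letters only.

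Library totals ran from 28169059 to 35798201 counts, and the floor of 3 counts that a reading of 0 allows equals 0.0852 to 0.104 CPM, a unit in which counts are divided by TMM-scaled library sizes. Prdm16 itself had 14 to 25 counts in the puro libraries and 72525 to 98437 in the Prdm16 libraries. Of the 13805 tested genes 75.6% were called at an adjusted p of 0.05, 38% lower and 37.5% higher, so a call alone sets no gene apart. Each log2 change, the log2 fold change of Prdm16 over puro, is given with its SE, and each adjusted p is from edgeR's quasi-likelihood test over all tested genes.

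Of the 9 tested matricellular genes 7 fell and 2 rose, against 38% and 37.5% of all tested genes. Their groups did not overlap in any of the 9, as was the case for 77.6% of all tested genes. The median log2 fold change of the 9 was −1.52, beside −0.01 for all tested genes. A fall of at least 1 on the log2 scale was called for 6 of the 9, against 12.1% of all tested genes, and one of at least 3 for 3 of the 9, against 3.13%. The 10 genes together held 0.820% ± 0.015 of all counts in the puro libraries and 0.347% ± 0.009 in the Prdm16 libraries (SD, n = 3 each). The groups did not overlap in that share, and the exact two-sided permutation test gave p = 0.1, the smallest that 3 against 3 libraries allow. Fewer cells of a kind and less RNA per cell cannot be told apart in such bulk libraries.

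**Figure D1:**
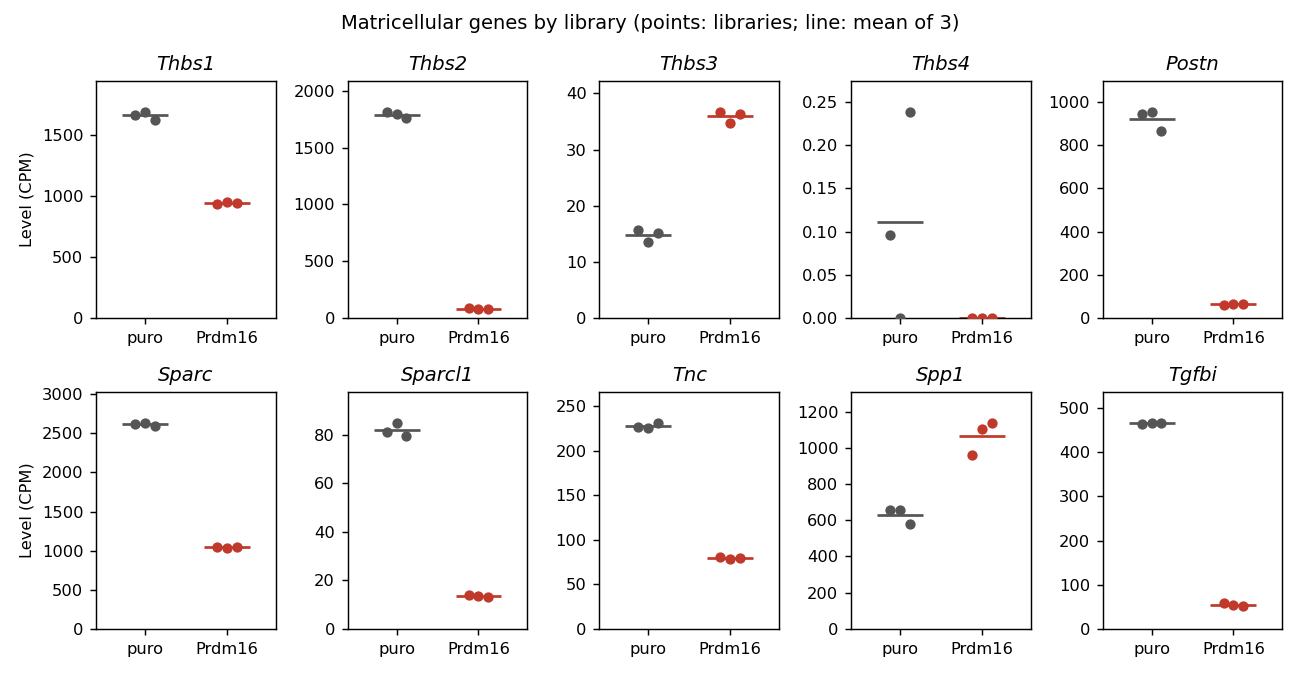
Level of each of the 10 matricellular genes, in CPM on a linear axis that starts at 0, in the 3 puro (grey) and 3 Prdm16 (red) libraries, with points for libraries and a line for their mean. Thbs2, Postn, Sparcl1 and Tgfbi lie near the axis in the Prdm16 libraries, Thbs1, Sparc and Tnc are lower but well above it, and Thbs3 and Spp1 are higher.

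Among the thrombospondins, Thbs2, an inhibitor of vessel growth that also shapes collagen fibrils, fell most. It stood at 1814, 1796 and 1758 CPM in the puro libraries and at 90.9, 81.1 and 79.8 CPM in the Prdm16 libraries. The lowest puro library was 19.3 times the highest Prdm16 library, and the log2 change was −4.41 ± 0.05 (adjusted p = 4.75e-13), the gene at rank 185 from the lowest among all tested genes. Thbs1, the TGF-beta-activating member, kept more of its level, 56.8% against 4.69%. Its values were 1667, 1689 and 1625 CPM in the puro and 934, 950 and 945 CPM in the Prdm16 libraries, a log2 change of −0.82 ± 0.03 (adjusted p = 1.58e-09). The spread within each group was small, with a coefficient of variation of 1.96% and 0.860%, against a gap of 1.71 times between the nearest libraries of the groups.

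Thbs3, a thrombospondin of the pentameric subgroup, went the other way. It read 15.7, 13.5 and 15.2 CPM in the puro and 36.7, 34.7 and 36.3 CPM in the Prdm16 libraries, a log2 change of 1.28 ± 0.06 (adjusted p = 7.88e-09). The Prdm16 libraries were all higher, and the rise placed Thbs3 above 92.4% of tested genes. Exons of Thbs3 share 318 bases, 6.59% of its exon bases in GENCODE, with Mtx1, a mitochondrial import gene on the opposite strand, and whether the counting used strand is not stated. Mtx1, named after its values were seen, had a log2 change of −0.14 ± 0.07 (adjusted p = 0.0756), from a mean of 38.3 to 34.8 CPM. Thbs4, better known from tendon, muscle and nerve, was close to undetected. It had 3, 0 and 8 counts in the puro libraries and none in the Prdm16 libraries. With a floor of 3 counts over the Prdm16 group, Thbs4 was 3.60-fold lower there. This bound covers the counting error of the 0 in the Prdm16 group only. It takes the 11 puro counts as exact and leaves out variation between libraries, so the true fall may be smaller. Of the 11 puro counts 8 lay in puro replicate 3, and without that library the remaining 3 are at the floor and allow no bound. The groups overlapped at 0, and Thbs4 was not tested under the filter. Without a filter on low counts it was called lower (adjusted p = 0.0240) and so it was by DESeq2 (0.0399).

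The pair of fasciclin-domain genes fell together. Postn, which helps the protease BMP1 and lysyl oxidase mature collagen, had 943, 954 and 867 CPM in the puro and 62.3, 65.8 and 63.7 CPM in the Prdm16 libraries. All puro libraries lay at least 13.2 times above all Prdm16 libraries, and the log2 change was −3.85 ± 0.05 (adjusted p = 4.75e-13). Tgfbi, an adhesion protein named for its induction by TGF-beta, had 464, 465 and 467 CPM in the puro and 58.4, 54.4 and 52.4 CPM in the Prdm16 libraries, a log2 change of −3.08 ± 0.04 (adjusted p = 7.32e-13). All puro libraries were higher, with a coefficient of variation of 0.289% among them and of 5.53% among the Prdm16 libraries.

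Both SPARC genes fell, the minor one more steeply. Sparc, the collagen-binding counter-adhesive protein, was at 2617, 2637 and 2589 CPM in the puro and 1048, 1033 and 1042 CPM in the Prdm16 libraries. Its coefficients of variation were 0.929% and 0.724%, and the log2 change was −1.33 ± 0.03 (adjusted p = 2.88e-11). Sparcl1, also called hevin, was at 81.3, 85.1 and 79.4 CPM in the puro and 13.9, 13.8 and 13.2 CPM in the Prdm16 libraries, a log2 change of −2.59 ± 0.05 (adjusted p = 3.70e-12). Sparcl1 thus kept 16.6% of its puro level and Sparc 39.8%.

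Tnc, the tenascin of wounds and tumour stroma, also fell. It had 226, 226 and 232 CPM in the puro and 80.9, 78.0 and 79.7 CPM in the Prdm16 libraries, a log2 change of −1.52 ± 0.04 (adjusted p = 1.96e-11). The puro libraries were all higher, by at least 2.79 times.

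Spp1 was the abundant member that rose. It had 659, 654 and 577 CPM in the puro and 959, 1101 and 1139 CPM in the Prdm16 libraries, a log2 change of 0.76 ± 0.07 (adjusted p = 1.37e-06). The groups did not overlap, but the gap between the nearest libraries was 1.45 times and the replicates varied by 7.30% and 8.92%. Exons of Spp1 share 309 bases, 18.8% of its exon bases in GENCODE, with Gm42793 on the same strand, which is not in the count table. Osteopontin is also a product of macrophages, bone cells and some epithelia, so markers of these were read beside it, and their part in the result was not tested. The 9 macrophage markers in the table summed to 4.999 to 6.33 CPM in the puro and 4.73 to 4.97 CPM in the Prdm16 libraries, with Emr1, C1qa and C1qb at 0 in all libraries. The macrophage sum was mostly Cd68 (means of 3.85 and 4.60 CPM), which did not pass. Lyz2 fell from 146 counts over the puro group to 3 over the Prdm16 group, and Csf1r, too low to be tested, had 31 and 9. The 7 bone and cartilage markers summed to 2.13 to 2.68 and 0.725 to 0.852 CPM, with Ibsp at 0. That sum was mostly Col2a1 (means of 2.09 and 0.507 CPM), while Bglap, too low to be tested, had 11 and 22 counts over the groups. The 8 mammary epithelial markers summed to 0.287 to 0.358 and 26.7 to 28.2 CPM. That sum in the Prdm16 libraries lay in Krt18, Cdh1, Esrp1 and Epcam, which had 7, 8, 0 and 6 counts over the puro group and were tested only because they were high in the Prdm16 group, while Krt8, Krt5, Krt14 and Elf5 had at most 4 counts in either group.

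**Figure D2:**
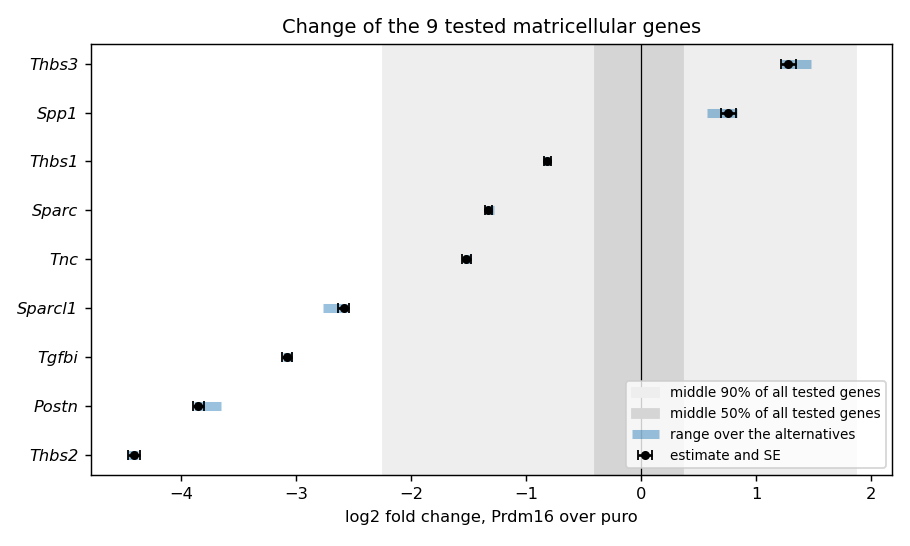
Log2 fold change of the 9 tested matricellular genes, Prdm16 over puro, with SE (black), the range over the alternative settings (blue) and, in grey, the middle 50% and 90% of all tested genes. Thbs2, Postn, Tgfbi and Sparcl1 lie below the 5th percentile of all tested genes (−2.24), and the 2 that rose lie inside the middle 90%.

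Levels of different genes were compared as CPM per kilobase of the principal GENCODE transcript, a scale on which gene length is divided out. In the puro libraries Sparc was highest at 1137 ± 10.6 (SD, n = 3), followed by Spp1 at 418 ± 30.5, and by Thbs2 (304 ± 4.85), Postn (289 ± 14.8) and Thbs1 (284 ± 5.57), of which Thbs2 and Postn overlapped, as did Postn and Thbs1. Tgfbi (172 ± 0.495), Tnc (32.1 ± 0.435), Sparcl1 (29.7 ± 1.04) and Thbs3 (4.64 ± 0.353) came below without overlap. Sparc thus stood above 99.9% of tested genes and Thbs3 above 31.8%. In the Prdm16 libraries Spp1 led at 708 ± 63.1 (SD, n = 3), ahead of Sparc at 453 ± 3.28 and Thbs1 at 161 ± 1.39, with a drop of 7.95 times to the next gene. Tgfbi (20.3 ± 1.12) and Postn (20.0 ± 0.566) then overlapped, as did Thbs3 (11.3 ± 0.324) and Tnc (11.2 ± 0.203), with Thbs2 (14.2 ± 1.02) between these pairs and Sparcl1 (4.94 ± 0.142) below them. The order rests on the lengths: with all exons of a gene joined, Postn was counted as 8702 instead of 3189 bases and fell to the sixth place in the puro libraries and the eighth in the Prdm16 libraries, and Thbs1 came ahead of Thbs2 in the puro libraries.

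The make-up of the family changed with the levels. Of the summed CPM per kilobase of the 10 genes, Sparc held 42.6% ± 0.68 in the puro libraries and 32.3% ± 1.6 in the Prdm16 libraries (SD, n = 3), while Spp1 went from 15.7% ± 0.78 to 50.4% ± 2.4. Among thrombospondins, Thbs1 and Thbs2 held 47.9% ± 0.32 and 51.3% ± 0.26 in the puro libraries. In the Prdm16 libraries Thbs1 held 86.3% ± 0.67, Thbs2 7.62% ± 0.55 and Thbs3 6.03% ± 0.18. These shares are a description of the levels above, with no test of their own.

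**Figure D3:**
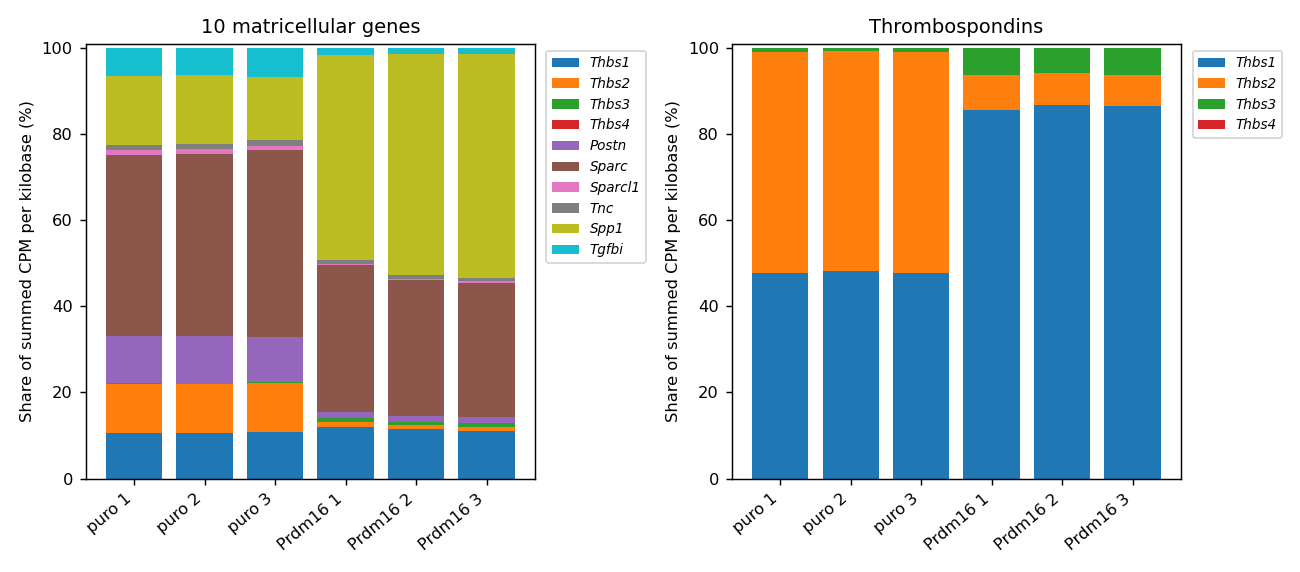
Share of each gene, in percent of the summed CPM per kilobase of principal transcript, in each of the 6 libraries, for the 10 matricellular genes (left) and for the 4 thrombospondins (right). Spp1 takes the largest part in the Prdm16 libraries and Sparc in the puro libraries, and Thbs2 shrinks from 51.3% to 7.62% of the thrombospondins.

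Related genes were also set against each other within each library, which frees the ratio from library scaling. The log2 ratio of Thbs1 to Thbs2 counts was −0.12, −0.09 and −0.11 in the puro libraries and 3.36, 3.55 and 3.56 in the Prdm16 libraries, a difference of 3.60 between groups. The log2 ratio of Sparc to Sparcl1 went from a mean of 4.996 ± 0.038 to 6.25 ± 0.043 (SD, n = 3), a difference of 1.26. That of Postn to Tgfbi went from 0.98 ± 0.078 to 0.22 ± 0.107, a difference of −0.77. The ratio of Thbs3 to Thbs4 rests on Thbs4 counts at the floor, ranging from 5.91 to 9.88 over the puro libraries, and its difference of 3.55 between groups is given only for completeness. For each of these 4 ratios the libraries of the groups did not overlap, and the exact two-sided permutation test gave p = 0.1, also after adjustment over the 4 ratios, the smallest value that this design allows.

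The genes around the matricellular proteins were read by role, from lists written with earlier results of these data known, and the counts are set beside the 38% of all tested genes that fell and the 37.5% that rose. Among 18 tested receptors and surface partners 10 fell, 6 rose and 2 did not pass (median log2 fold change −0.16). Cd36, the scavenger receptor that binds the thrombospondins 1 and 2, rose from 1.70 ± 0.206 to 34.9 ± 2.75 CPM (n = 3, SD; a log2 change of 4.36 ± 0.10, adjusted p = 2.05e-11). Cd47, the other thrombospondin receptor, fell by 0.65 ± 0.03 on the log2 scale, and so did Lrp1, the endocytic receptor that clears thrombospondins, by 0.72 ± 0.04, and Cd44, a receptor of osteopontin, by 0.79 ± 0.04. Integrin chains, some of which bind osteopontin, periostin and Tgfbi, went both ways. Itgav had a log2 change of 0.04 ± 0.04 (adjusted p = 0.420), Itgb1 of −0.14 ± 0.04, Itgb5 of −0.18 ± 0.04 and Itgb3 of −0.96 ± 0.07, from 20.1 ± 0.716 to 10.3 ± 0.533 CPM (SD, n = 3). Itga3, Itga8 and Itgb8, named after their values were seen, rose by 1.36 ± 0.04, 0.50 ± 0.09 and 2.65 ± 0.10 on the log2 scale. Itga5, also named after its values were seen, fell by 0.77 ± 0.03, from a mean of 339 to 199 CPM. The call of Itgb5 ended when the median change of each chromosome was removed (−0.03, adjusted p = 0.411). Itga9, a tenascin and osteopontin receptor chain, was too low to be tested.

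Of 18 tested relatives, which covered other tenascins, the testicans and SMOC proteins related to SPARC, the CCN proteins, the bone phosphoproteins related to osteopontin, fibulins, a thrombospondin-repeat protein (Thsd7a) and a stabilin with fasciclin domains, 11 fell, 5 rose and 2 did not pass (median −0.57). Where 3 libraries had to reach 1 CPM, which tests fewer genes, 2 rose. Smoc2, a calcium-binding relative of SPARC, fell from 35.6 ± 1.43 to 0.575 ± 0.031 CPM (n = 3, SD; a log2 change of −5.94 ± 0.09, adjusted p = 1.38e-12). Tnxb, tenascin X, fell by 1.36 ± 0.12 on the log2 scale, and the CCN proteins Cyr61 and Ctgf by 0.49 ± 0.04 and 0.56 ± 0.05. Fstl1, the follistatin-like relative of SPARC, did not pass (0.02 ± 0.04, adjusted p = 0.649), nor did Comp, the cartilage thrombospondin (0.37 ± 0.36, adjusted p = 0.363), which was below 1 CPM in both groups. Spock2, a testican, rose by 1.54 ± 0.34 but only to 0.588 ± 0.114 CPM (SD, n = 3). Of the relatives that rose, Spock2, Spock3 and Dmp1 had 20, 0 and 32 counts over the puro group. They passed the filter on low counts only through the Prdm16 group, where they were high. Of those that fell, Tnn and Stab2 had 7 and 8 counts over the Prdm16 group and passed only through the puro group. Spock3, Dmp1, Tnn and Stab2 were named after their values were seen. The more abundant risers, named after their values were seen, were the elastic-fibre fibulin Fbln5, from 39.6 ± 0.419 to 165 ± 4.81 CPM, and Thsd7a, from 60.8 ± 3.80 to 214 ± 11.6 CPM (SD, n = 3), with log2 changes of 2.06 ± 0.04 and 1.81 ± 0.06.

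In the TGF-beta list 10 of 20 tested genes fell, 6 rose and 4 did not pass (median −0.23). Tgfb1, the ligand that Thbs1 can activate, did not pass (−0.20 ± 0.11, adjusted p = 0.125), and passed without puro replicate 2 (−0.28, adjusted p = 0.0492). Tgfb2 rose by 0.63 ± 0.06 and Tgfb3 fell by 0.27 ± 0.08 on the log2 scale. The receptors Tgfbr1 and Tgfbr2 rose by 0.51 ± 0.05 and 1.39 ± 0.03. The latent binding protein Ltbp1 fell by 1.04 ± 0.04 on the log2 scale. Smad2, Smad4 and Smad7, named after their values were seen, fell, with log2 changes of −0.39 ± 0.04, −0.55 ± 0.04 and −1.24 ± 0.06. These genes lie on chromosome 18, whose tested genes had a median log2 change of −0.40, close to the change of Smad2. Smad3, which like Smad2 is activated by the receptors, did not pass (0.07 ± 0.04, adjusted p = 0.149), and was called higher with chromosome medians removed (0.18, adjusted p = 0.00182).

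Matrix proteins that the members bind or help to assemble fell in 18 of 19 tested cases (median −1.41). Col3a1, a fibril collagen, fell from 5007 ± 99.9 to 1880 ± 94.0 CPM (n = 3, SD; a log2 change of −1.41 ± 0.04, adjusted p = 1.71e-10), Col5a1 by 1.80 ± 0.11 on the log2 scale, and Col1a1 by 3.55 ± 0.13. The cross-linking enzyme Lox had a log2 change of −2.90 ± 0.04. Fibronectin, Fn1, fell by 0.30 ± 0.04 only. The proteoglycan Dcn had a log2 change of −0.25 ± 0.09 (adjusted p = 0.0330) and lost its call by DESeq2 (adjusted p = 0.196), without a low-count filter (0.0657), with chromosome medians removed (0.0634) and without each of puro replicates 1 (0.0550) and 2 (0.107) and Prdm16 replicates 1 (0.0644), 2 (0.0702) and 3 (0.0877). The gene that rose was Bmp1, the procollagen protease that binds periostin, by 0.50 ± 0.04, and its value was 0.01 (adjusted p = 0.807) once the chromosome 14 median of 0.49 was taken off.

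Among 15 tested proteases that cut members and their inhibitors 11 fell, 3 rose and 1 did not pass (median −0.68). Of those that fell, Mmp9 and Mmp13, named after their values were seen, had 17 and 10 counts over the Prdm16 group. They passed the filter on low counts only through the puro group, where they were high. Mmp3, which cuts osteopontin and SPARC, fell from 7.22 ± 1.07 to 0.533 ± 0.032 CPM (n = 3, SD; a log2 change of −3.75 ± 0.18), Mmp2 fell by 0.95 ± 0.04 on the log2 scale, Mmp14 by 0.68 ± 0.04 and cathepsin K, Ctsk, by 0.76 ± 0.11. Adamts1, which cuts thrombospondins, rose from 288 ± 3.99 to 561 ± 8.59 CPM (n = 3, SD; a log2 change of 0.96 ± 0.03). The inhibitor Timp3 rose by 1.68 ± 0.06 and Timp1 fell by 0.67 ± 0.05. Plau, the urokinase, did not pass (0.05 ± 0.04, adjusted p = 0.329), and was called lower with chromosome medians removed (−0.44, adjusted p = 4.55e-06).

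Of 17 transcription regulators known to act on member genes 7 fell, 6 rose and 4 did not pass (median −0.01), and with chromosome medians removed 5 fell and 8 rose. The actin-responsive coactivator Mkl1 fell from 97.1 ± 6.16 to 41.8 ± 2.84 CPM (n = 3, SD; a log2 change of −1.21 ± 0.06, adjusted p = 7.84e-09), whereas its partner Srf rose by 0.23 ± 0.07 with groups that overlapped. Twist1, which acts on Postn, rose by 0.36 ± 0.06, and Egr1, an immediate early factor, by 0.63 ± 0.06. Runx2, the bone factor that acts on Spp1, fell by 0.42 ± 0.05. Prrx1, a mesenchymal homeobox factor that acts on Tnc, did not pass (−0.01 ± 0.04, adjusted p = 0.852), a value whose sign changed over the alternatives.

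**Figure D4:**
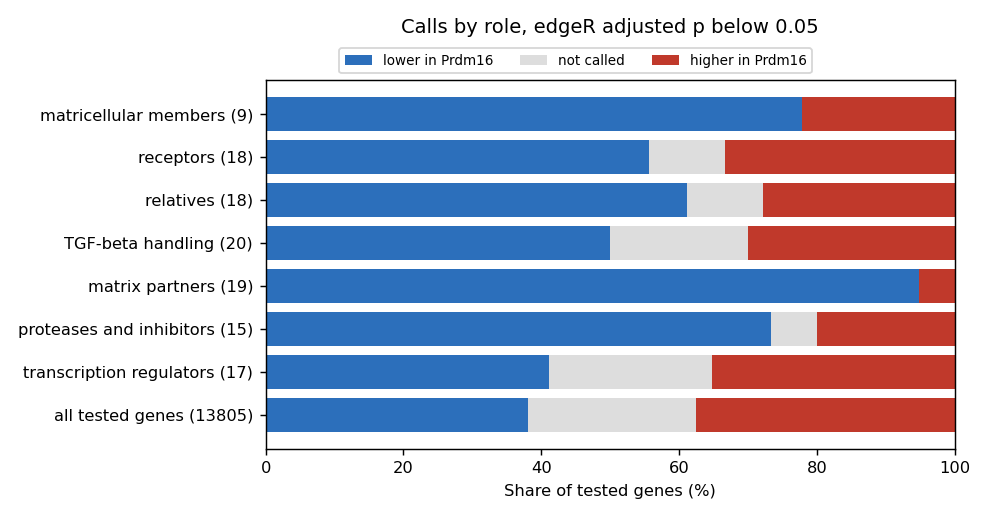
Share of tested genes, in percent, called lower (blue), called higher (red) or not called (grey) in the Prdm16 libraries, for the matricellular genes, 6 lists of genes around them and all tested genes, with the number tested in brackets. Matrix partners fell in 18 of 19 cases, and the transcription regulators (7 lower, 6 higher) lie nearest to all tested genes.

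Markers of stromal fibroblasts and progenitors were present, summing to 2412 to 2539 CPM in the puro and 1838 to 1962 CPM in the Prdm16 libraries. Of 6 tested, 4 fell: Cd34, Thy1, Pdgfrb and Vim, with log2 changes of −4.10 ± 0.13, −2.83 ± 0.48, −1.50 ± 0.03 and −1.34 ± 0.06. Thy1 had only 53 and 7 counts over the puro and Prdm16 groups. Ly6a rose (means of 376 and 988 CPM). Pdgfra, the receptor that marks stromal progenitors, did not pass (−0.08 ± 0.04, adjusted p = 0.116). These, like the other marker genes given here, were named after their values were seen. The endothelial markers Cdh5 and Cldn5 were at 0 in all libraries, and the list summed to 3.32 to 3.78 and 9.37 to 12.2 CPM. The higher sum was mostly Tek (means of 1.19 and 10.2 CPM), while Vwf fell (1.78 to 0.298 CPM) and Kdr did not pass (adjusted p = 0.733). Pericyte and smooth muscle markers summed to 163 to 187 and 199 to 223 CPM with Kcnj8 at 0. Of these 5 of 6 tested fell, and the sum was mostly Notch3, which rose (means of 125 and 201 CPM). Platelet markers, read because platelets carry much Thbs1, summed to 29.0 to 31.3 and 25.9 to 27.4 CPM. Schwann cell markers summed to 9.09 to 9.90 and 3.98 to 4.35 CPM with Sox10 at 0, and mesothelial markers to 7.06 to 7.45 and 89.6 to 95.04 CPM with Upk1b at 0. The mesothelial sum was mostly Msln (means of 6.30 and 91.2 CPM), whereas Wt1 went from 75 counts over the puro group to 1, and Upk3b and Lrrn4 were too low to be tested. Adipocyte markers summed to 104 to 122 and 517 to 616 CPM. The adipocyte sum was mostly Fabp4 (means of 115 and 551 CPM). Adipoq and Cidec rose too but reached means of only 2.36 and 3.46 CPM, and Plin1, Lep and Retn were too low to be tested. Adipoq and Cidec had 28 and 9 counts over the puro group and passed the filter on low counts only through the Prdm16 group, where they were high. The part that any of these played in the changes of the matricellular genes was not tested.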

How the data were processed

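Polyadenylated RNA of 6 libraries was measured, 3 puro and 3 Prdm16. The authors deposited raw whole-number counts per gene symbol, with no normalization. STAR, featureCounts and Subread and the build mm9 are named in the submitters' processing notes, with no role or version. The strand setting and the treatment of reads shared between genes are not stated there. Groups came from the sample titles. The members, gene lists, tests and alternatives were chosen with earlier results of these data known.

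Genes were filtered with filterByExpr (13805 of 24197 left, with 0.0297% of counts removed), scaled by TMM and compared with edgeR 4.0.16 in R 4.3.3 by its quasi-likelihood test, two-sided, with Benjamini-Hochberg adjustment, a threshold of 0.05 and no block. SEs came from the fold change and its F statistic. Ratios within a library used counts plus 0.5. Lengths, chromosomes (98.5% of genes matched by symbol) and overlaps came from GENCODE M21 on GRCm38, another build than mm9. The named genes were the 10 members and the genes marked in advance in each list by role. Not every gene so marked is reported here. Alternatives were scaling by RLE or upper quartile, no filter, at least 1 CPM in 3 libraries, DESeq2 1.42.0, limma-voom (limma 3.58.1), a replicate block, Prdm16 left out, chromosome medians removed and each library left out. The length used for levels across genes was chosen after seeing the data. Replicate pairs differed by a chi-square of 2.08 to 8.85 per gene, above sampling noise of 1, which does not show that they came from separate cultures. All were taken as replicates because the labels give them so. The table has no column outside the 6 libraries.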

Additional observations from a re-analysis of the deposited data

How the results depend on the processing

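All 135 alternative values of the 9 tested matricellular genes kept the direction and the side of the threshold. With chromosome medians removed, Spp1 had a log2 fold change of 0.58, Thbs3 of 1.48, Postn of −3.66 and Sparcl1 of −2.77, the values farthest from those reported. The members called lower stayed at 7, or 8 with Thbs4 where it was tested (no low-count filter, DESeq2), and those called higher at 2. Without 1 library at a time, 9884 to 10444 genes were called, the Thbs1 to Thbs2 ratio differed by 3.56 to 3.67 between groups, Sparc to Sparcl1 by 1.23 to 1.27, Postn to Tgfbi by −0.81 to −0.71, Thbs3 to Thbs4 by 2.68 to 4.67, and the summed share by −0.48 to −0.47 percentage points. The count of relatives that rose was 2 with at least 1 CPM in 3 libraries, which tests fewer genes, and that of matrix partners that rose was 0 with chromosome medians removed. Thbs4 has no bound without puro replicate 3, a choice made after seeing the data. Among genes that did not pass, Prrx1 changed sign without a low-count filter (0.0106), and ran from −0.0512 to 0.0203 over the libraries left out. Itgav did so with chromosome medians removed (−0.00249), as did Plau (−0.44), and Fstl1 ran from −0.00576 to 0.0525 over the libraries left out. Fstl1 was called higher with chromosome medians removed (0.17). The cause was not tested. With the length of all exons, chosen after seeing the data, Spp1 held 20.2% (puro) and 57.0% (Prdm16) of the members' summed level, and Thbs2 48.0% and 6.86% of the thrombospondins'.

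The deviations of same-numbered libraries from their group means had correlations of −0.164, 0.0986 and −0.0674. Between puro replicate 3 and Prdm16 replicate 1 the correlation was 0.25. With 3 libraries in each group such values cannot decide whether the numbers pair the libraries. With a replicate block 10089 genes were called, against 10430 without it, no member lost its call, and Dcn lost its own (−0.25, adjusted p = 0.0703).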
